A study of Saccharomyces cerevisiae with 17 samples.

Results

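The genes described here are 119 of the 6648 genes in the authors' first table. Each carried the table's yes entry for a motif and a wild type log2 abundance of at least 4, which is 16 FPKM (fragments scaled by transcript length and library size). They were drawn from 237 genes with the motif entry. Of the others, 98 lay below the threshold, 2 had no wild type value, and 18 were left out by gene name or prefix, 16 of them at or above the threshold. The members were thus selected on their wild type value, so every value set against wild type is given as a description, and the tests use columns that the choice did not use.

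The study compared RNA from Saccharomyces cerevisiae strains of the W303 background. The labels describe 17 libraries and the deposited tables hold 15 columns in 10 groups. Chd1-Ume6 is an engineered protein in which the nucleosome-sliding enzyme Chd1 is joined to the part of Ume6 that recognises DNA. The groups were a ume6 deletion with Chd1-Ume6 (2 columns), a ume6 deletion with a catalytically inactive Chd1-Ume6 (1 column), the ume6 deletion alone (2), an rrp6 deletion with Chd1-Ume6 (2), the rrp6 deletion alone (2), an isw2 rpd3 double deletion (1), an rpd3 deletion (1), an isw2 deletion (1), wild type cells with Chd1-Ume6 (2) and wild type (1). The wild type column is the authors' mean over several libraries and is printed without an error. The labels give 2 wild type libraries, and which libraries went into the mean is not given. For isw2 there is 1 column and 2 labelled isolates, and whether the column holds 1 of them or both is not given. The labels call only the double deletion strain prototrophic. The first table has 1 column for each of 8 groups. The workbook adds a column each for the ume6 deletion, for Chd1-Ume6 in ume6 and for Chd1-Ume6 in wild type, and holds both columns of each rrp6 group. In groups with a column in each table, the first value printed is from the first table.

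Ume6 is a zinc-cluster protein that binds the URS1 element, whose core reads GCCGCC, and it keeps early meiotic genes off in growing cells. It recruits the Rpd3 histone deacetylase through Sin3, and the Isw2 remodeler, which slides nucleosomes over the site. Many genes with such an element are nevertheless transcribed during growth, among them genes for basic metabolism, translation and the cell cycle. Rrp6 is a nuclease of the nuclear exosome, which trims and destroys nuclear RNA.

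The first table does not name its motif, so the upstream 600 bases of each gene were searched in the S288C reference, build R64 of RefSeq, on both strands. Of the members, 117 of 119 had an R64 locus by systematic name. The core GCCGCC was found for 78 of the 117 (66.7%), against 70 of 91 motif genes below the threshold (76.9%) and 11.3% of 5995 genes. The longer TAGCCGCC, which contains the core, was found for 35.0% of members, 52.7% of the motif genes below the threshold and 2.8% of all genes. The nearest core lay a median of 247 bases before the start codon of members, 167.5 bases for motif genes below the threshold and 327.5 bases over all genes. A match describes these letters in S288C, and the strains were W303.

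The cores nearest to members that changed without Ume6 are shown first, because the position and the sharing of sites recur in the results. Each line gives 30 bases of R64, 5' to 3', with the core in capitals.

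PST1 (chrIV:562983-563012, minus strand): aagaaaaaaataGCCGCCcagctcccacgt
COS1 (chrXIV:8221-8250, minus strand): cagaaaaaaaaaGCCGCCgaggcgcgcgcg
YPL014W and HST2 (chrXVI:527122-527151, minus strand): atgtagtaagaaGCCGCCcttcccgcgccg
IRC15 (chrXVI:520294-520323, plus strand): gcatgttaaataGCCGCCgaaacagcagat
YNR066C (chrXIV:755138-755167, minus strand): atatatttaaatGCCGCCaatttgcaacca
YCR101C (chrIII:303133-303162, minus strand): atatatttaaatGCCGCCaatttgcaacca
PUT3 (chrXI:408413-408442, minus strand): aagctttaaattGCCGCCgaagtcaagtat
UBI4 (chrXII:65515-65544, minus strand): aaaaaaaaaataGCCGCCcagtggagcatc
APQ12 (chrIX:277496-277525, plus strand): cgacgcttaataGCCGCCctgttcttgtct
YDR374W-A (chrIV:1224606-1224635, plus strand): ccaaaaagattaGCCGCCgaggtacatcgt
SPL2 and ARO9 (chrVIII:375465-375494, plus strand): aaaaatactattGCCGCCgacggccgtaga
MES1 (chrVII:1022079-1022108, minus strand): ttatctttgttaGCCGCCgaaacgatcatt
YCR061W (chrIII:225301-225330, plus strand): cacggcaaattaGCCGCCgaagaccgatat

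One core lies between YPL014W and HST2, which are transcribed away from each other, 407 and 250 bases before their start codons. SPL2 and ARO9 likewise share 1 core. YNR066C and YCR101C, on different chromosomes, have the same 30 bases, 114 bases before each start codon. The next 5 sites are those of the most abundant members with a core that were not called in either loss of Ume6, and are shown for comparison.

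PDR5 (chrXV:619250-619279, plus strand): cgacacaaccttGCCGCCgagaaaacgtcc
IPP1 (chrII:258326-258355, minus strand): tatcatgatttaGCCGCCgaattttatgta
PDA1 (chrV:546376-546405, plus strand): cagccacctgctGCCGCCgaaggtgaagca
SMT3 (chrIV:1469141-1469170, plus strand): tgtcacgtttttGCCGCCgaactctttgat
VRG4 (chrVII:76561-76590, plus strand): tataaagaattaGCCGCCcataacacgaaa

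The engineered genes showed the labelled genotype. ISW2 was at 0.00613 and 0.0818 FPKM in isw2 and the double deletion and between 15.7 and 43.2 FPKM in the other columns. RPD3 was at 0.0479 and 0.110 FPKM in rpd3 and the double deletion. RRP6 did not exceed 1.69 FPKM in the rrp6 columns, with 1 value missing. UME6 was at 0.0536 FPKM in the first ume6 column and missing in the other. CHD1, which the fusion adds to, was at 836 and 1075 FPKM in ume6 with the fusion, 1608 FPKM with the inactive form, 288 and 276 FPKM in rrp6 with the fusion, and 505 and 449 FPKM in wild type with the fusion. Comparisons between backgrounds that carry the fusion therefore also differ in CHD1 RNA, and its part in the results below was not tested. The FPKM of a column summed to between 889031 and 1132504, and the sequencing depth behind them is unknown. In bulk RNA, fewer cells with a transcript and less of it per cell cannot be told apart.

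In wild type the members ranged from 16.2 to 4061 FPKM, with a median of 40.8. The most abundant were CDC19 (pyruvate kinase, 4061 FPKM), FAS1 (fatty acid synthase, 1243 FPKM), PDR5 (a drug efflux pump, 969 FPKM), IPP1 (inorganic pyrophosphatase, 778 FPKM) and PDA1 (a pyruvate dehydrogenase subunit, 560 FPKM). Just inside the threshold stood NKP2, IGD1, SCC2, BEM4 and CUP2, at log2 levels of 4.01, 4.05, 4.07, 4.09 and 4.14. Just outside it stood YJR115W, ORC1, YSP3, PDS5 and COS5, at 3.99, 3.96, 3.96, 3.93 and 3.92. All 119 members had a value in every column and passed the filter on low values, which the wild type threshold made likely.

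Over the 8 columns of the first table a member's highest and lowest values lay a median of 1.08 log2 units apart. The median was 0.93 for active genes without the motif entry and 0.99 for all genes tested. In 72 members the range was at least 2-fold and in 15 at least 4-fold, and such ranges were not counted over all genes. The narrowest ranges were those of GNT1, a Golgi sugar transferase (0.27), IPP1 (0.30) and MSC6 (0.44). The widest were those of COS1, of the subtelomeric COS family (6.48), SPL2, a regulator of phosphate uptake (4.27), and YPL014W, named CIP1 in RefSeq and an inhibitor of cyclin-dependent kinase (3.75). The ume6 column was the highest for 28 members and the lowest for 15, the widest excess of highest over lowest counts among the 8 columns. The isw2 column was the highest for 2 and the lowest for 19. Highest and lowest columns were not counted over all genes, so these counts describe the members only. The wild type value, which chose the members, is 1 of the 8.

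Loss of Ume6 could be tested without the wild type column by setting ume6 with Chd1-Ume6 against wild type with Chd1-Ume6. Of the 119 members, 14 rose (11.8%), where 9.36% of the 6241 genes tested were called higher, and 3 fell (2.52%), where 2.69% of all genes were called lower. The share that rose was thus close to the background. The median change of members was 0.10 on the log2 scale, against 0.01 over all genes tested. Of the 90 motif genes below the threshold that could be tested, 44 rose and the median change was 1.07. Of 4395 active genes without the motif entry, 327 rose and 145 fell. Calls are limma estimates on log2(FPKM + 1) at a Benjamini-Hochberg adjusted p below 0.05, and folds are those of FPKM + 1. The labels number the isolates, with nothing to say whether these came from separate cultures. The columns of both groups compared here, and those of ume6 and isw2, are headed by the group alone, without an isolate number. The p-values describe scatter between columns only, which may be technical.

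**Figure D1:**
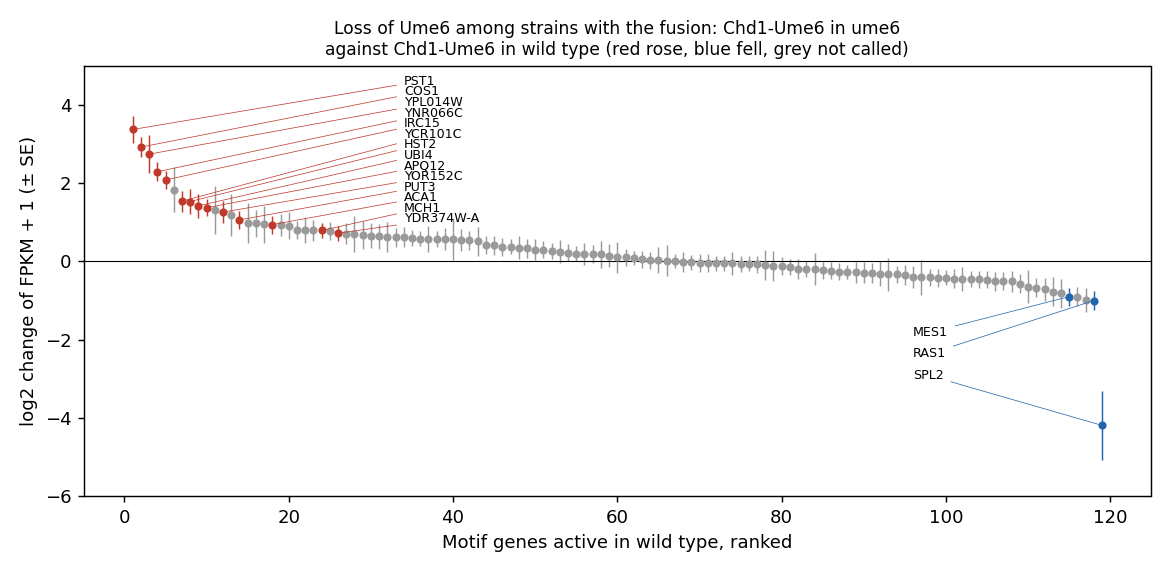
Log2 change of FPKM + 1 with its standard error (vertical axis) for the 119 members in rank order (horizontal axis), ume6 with Chd1-Ume6 against wild type with Chd1-Ume6. The 14 members that rose are red and named, the 3 that fell are blue and named, and most of the grey points lie within 1 unit of 0.

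The largest rise was that of PST1, a cell wall protein. It had 1656 and 2290 FPKM in ume6 with the fusion, against 192 and 182 FPKM in wild type with the fusion. Both pairs lie far apart, and the difference was 10.4-fold (3.37 ± 0.35 SE on the log2 scale, limma adjusted p = 0.00192, n = 2 each). COS1 had 69.5 and 87.2 FPKM in ume6 with the fusion, against 7.94 and 11.1 FPKM in wild type with the fusion, a 7.59-fold rise (2.92 ± 0.26 SE, limma adjusted p = 0.00125). Of the 50-base words of COS1, 71.1% occur more than once in R64, so its reads may not be assignable to it alone.

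The pair around the shared core rose together. YPL014W had 86.0 and 256 FPKM in ume6 with the fusion, against 11.99 and 37.4 FPKM in wild type with the fusion, and rose 6.70-fold (2.74 ± 0.49 SE, limma adjusted p = 0.0121). HST2, which encodes a sirtuin deacetylase, had 228 and 245 FPKM in ume6 with the fusion, against 65.1 and 101 FPKM in wild type with the fusion, and rose 2.89-fold (1.53 ± 0.32 SE, limma adjusted p = 0.0216). In both genes the groups do not overlap, and in both groups of YPL014W the workbook column is the higher one. IRC15, a microtubule-associated protein, had 110.0 and 74.8 FPKM in ume6 with the fusion, against 21.6 and 19.9 FPKM in wild type with the fusion, and rose 4.22-fold (2.08 ± 0.22 SE, limma adjusted p = 0.00206).

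The genes with the identical site, which RefSeq lists without a common name, also moved the same way. YNR066C had 96.1 and 83.4 FPKM in ume6 with the fusion, against 22.3 and 13.7 FPKM in wild type with the fusion (2.29 ± 0.24 SE, limma adjusted p = 0.00206). YCR101C had 42.8 and 35.4 FPKM in ume6 with the fusion, against 13.2 and 12.2 FPKM in wild type with the fusion (1.54 ± 0.27 SE, limma adjusted p = 0.0106). Neither open reading frame shares 50-base words with the rest of R64. Shorter matches, untranslated regions and W303 sequence were not searched, so whether the genes share reads was not tested.

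The other risers covered several roles. UBI4, the stress-inducible polyubiquitin gene, had 439 and 396.5 FPKM in ume6 with the fusion, against 124 and 194 FPKM in wild type with the fusion (1.42 ± 0.30 SE, limma adjusted p = 0.0223). Of the 50-base words of UBI4, 18.2% occur more than once in R64, and repeats within the gene itself are counted. APQ12, a nuclear envelope protein, rose by a log2 change of 1.37, and YOR152C (ATG40, a receptor for autophagy of the endoplasmic reticulum) by 1.26. PUT3, the activator of proline use, rose by 1.06, ACA1, a transcription factor of the ATF/CREB family, by 0.94, MCH1, a monocarboxylate permease homolog, by 0.79, and YDR374W-A (WIP1, a kinetochore protein) by 0.72.

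The 3 members that fell act in phosphate uptake, signalling and tRNA charging. SPL2 had 6.82 and 5.36 FPKM in ume6 with the fusion, against 105 and 156 FPKM in wild type with the fusion, and was 18.2-fold lower (log2 change -4.19 ± 0.89 SE, limma adjusted p = 0.0231). RAS1, a GTPase that activates adenylate cyclase, had 70.7 and 45.8 FPKM in ume6 with the fusion, against 128 and 103 FPKM in wild type with the fusion, and was 2-fold lower (limma adjusted p = 0.0396). MES1, the methionyl-tRNA synthetase, had 109 and 83.7 FPKM in ume6 with the fusion, against 192 and 166 FPKM in wild type with the fusion (-0.90 ± 0.23 SE, limma adjusted p = 0.0401). RPC17, an RNA polymerase III subunit, had the most negative value among the members not called (-0.99 ± 0.30 SE, limma adjusted p = 0.0697). SPL2 also differed within groups: it had 70.6 FPKM in one rrp6 column and 5.37 FPKM in the other.

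Leaving out 1 of the 4 columns compared cost most of these calls. Without the first-table column of ume6 with the fusion 4 members were called, without its workbook column 4, without the first-table column of wild type with the fusion 6, and without its workbook column 5. PST1, COS1, YNR066C and IRC15 were called whichever of the 10 columns of paired groups was left out, with log2 changes of 3.12 to 3.63 for PST1, 2.81 to 3.04 for COS1, 2.04 to 2.54 for YNR066C and 1.83 to 2.33 for IRC15. Without either ume6 column 11 members were called.

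**Figure D2:**
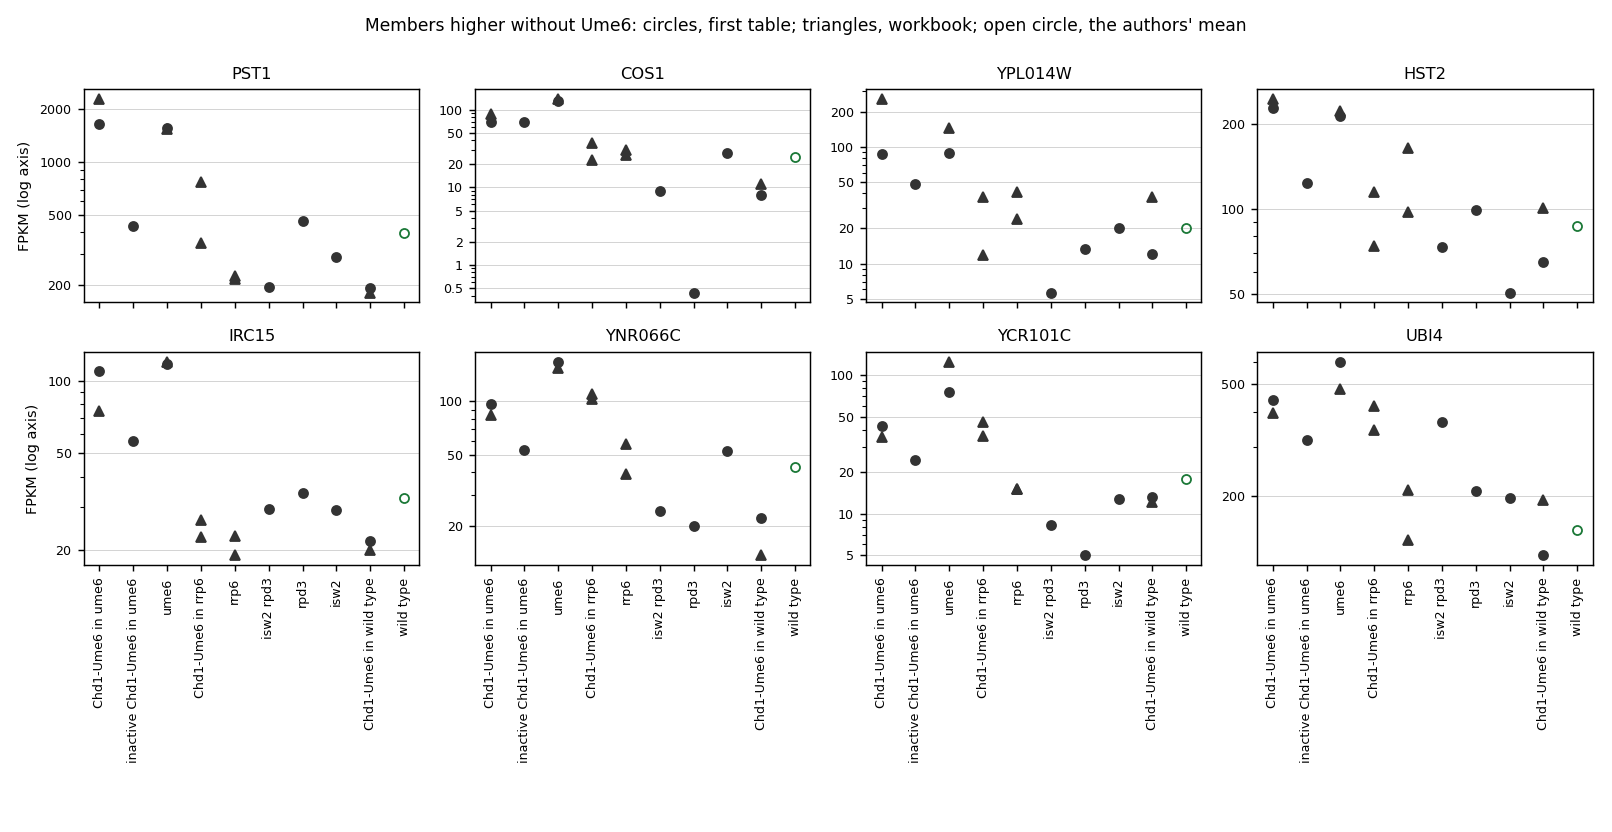
FPKM on a log axis for 8 members that rose (panels) in each group of strains (horizontal axis). Circles are columns of the first table, triangles are columns of the workbook and the open circle is the authors' wild type mean. In all 8 panels both columns of ume6 with Chd1-Ume6 lie above both columns of wild type with Chd1-Ume6.

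The calls fell in 7 of the 9 role groups, beside the 9.36% called higher and 2.69% called lower over all genes. Among 9 members for the cell wall, polarity and signalling PST1 rose and RAS1 fell, and the median change of 0.78, with 8 of 9 above 0, was the highest of the groups. Among 13 members for transcription factors, chromatin and RNA polymerase, 3 rose (HST2, PUT3, ACA1) and none fell. Among 12 for transport and membranes, 3 rose (COS1, APQ12, MCH1) and SPL2 fell. Among 13 for DNA, chromosomes and the cell cycle, YPL014W and IRC15 rose, and the median change was 0.55. Of 7 for protein modification and turnover, UBI4 and YOR152C rose. Among 19 metabolic enzymes none was called in this comparison, with a median of -0.05, and among 18 for translation, tRNA and ribosome assembly MES1 fell, with a median of -0.36 and 4 of 18 above 0. None of the 5 genes for glycosylation and GPI anchors was called. CDC19 had 2879 and 3202 FPKM in ume6 with the fusion, against 2599 and 3886 FPKM in wild type with the fusion, so its groups overlap (log2 change -0.07 ± 0.22 SE).

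The ume6 deletion without any fusion could be set against the isw2 deletion, which keeps Ume6 but lacks Isw2, a remodeler it recruits. Of the members 10 rose (2.29% of all genes were called higher) and ARO9 fell (0.465% called lower). The median change was 0.27, against 0.05 over all genes. YCR101C had 75.3 and 125 FPKM in ume6, against 12.7 FPKM in isw2, and rose 6.85-fold (2.78 ± 0.34 SE, limma adjusted p = 0.00603, n = 2 against 1). PST1 had 1564 and 1555 FPKM in ume6, against 290 FPKM in isw2 (2.36 ± 0.45 SE, limma adjusted p = 0.0363). PUT3 had 85.3 and 59.3 FPKM in ume6, against 20.1 FPKM in isw2 (2.05 ± 0.30 SE, limma adjusted p = 0.0112). In these genes both ume6 columns stand well above the isw2 column.

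IRC15 (2.09), COS1 (2.07), YCR061W (1.99), HST2 (1.95), YNR066C (1.75) and YDR374W-A (1.25) also rose. CYC3, the heme lyase of cytochrome c, rose with 73.3 and 80.1 FPKM in ume6, against 29.8 FPKM in isw2. ARO9, an aromatic aminotransferase, had 19.3 and 16.3 FPKM in ume6, against 63.0 FPKM in isw2, and was 3.15-fold lower (-1.66 ± 0.32 SE, limma adjusted p = 0.0385). The comparison names no column of the one between strains with the fusion, but both come from 1 fit. Since isw2 is only in the first table, the change takes in the fit's term for the table. That term is estimated partly from the columns with the fusion, so the calls are not independent. Of its 11 calls, 8 were among the 17 of the other comparison: COS1, HST2, IRC15, PST1, PUT3, YCR101C, YDR374W-A and YNR066C, and each rose in both. As a description, the isw2 column lay below wild type for HST2 (log2 difference -0.78), PUT3 (-0.62), CYC3 (-0.52) and YCR061W (-0.51). So it did for YCR101C (-0.45), PST1 (-0.44) and IRC15 (-0.16). It lay above wild type for COS1 (0.17), YNR066C (0.29) and YDR374W-A (0.25). Its median difference was -0.12 over members and -0.03 over all genes tested. The part of this in the rises was not tested. The single isw2 column has no spread of its own, and YCR101C alone was called whichever column was left out. Without the first-table ume6 column 1 member was called, without the workbook ume6 column 2, without either column of ume6 with the fusion 4, without either column of wild type with the fusion 6, and with quantile normalization 3.

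Against the isw2 rpd3 double deletion, which keeps Ume6 but lacks a subunit of each of the enzymes it recruits, 12 members rose in ume6 (5.27% of all genes were called higher) and ARO9 fell (1.78% called lower). COS1 had 128 and 137 FPKM in ume6, against 8.99 FPKM in the double deletion, and rose 12.1-fold (3.59 ± 0.33 SE, limma adjusted p = 0.0021). YPL014W had 88.0 and 143 FPKM in ume6, against 5.63 FPKM in the double deletion, and rose by more on the log2 scale than any other member but COS1 (3.46 ± 0.63 SE, limma adjusted p = 0.0189). YCR101C (3.34), PST1 (2.93), YNR066C (2.83) and IRC15 (2.08) rose as well. These genes were thus higher in ume6 than in the single column of the double deletion, the only strain labelled prototrophic. As a description, that column itself lay below wild type for each of them. The log2 differences were -1.67 for YPL014W, -1.35 for COS1, -1.01 for YCR101C and PST1, -0.8 for YNR066C and -0.14 for IRC15. The part of this in the rises was not tested.

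PHO87, a phosphate transporter (1.93), MMS1, part of a ubiquitin ligase acting at replication forks (1.61), ACA1 (1.55), CYC3, YDR374W-A (1.39) and MCD4, an enzyme of GPI anchor synthesis (1.23), completed the 12. Without the first-table ume6 column 3 members were called in this comparison, without the workbook ume6 column 6, and without either column of ume6 with the fusion 8. YCR101C, COS1 and YNR066C were called under each of these. With quantile normalization 8 members were called.

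Position of the core was set beside the change between strains with the fusion, as a description. Over all genes tested, whatever their position, 9.36% were called higher and 2.69% lower. Of 22 members whose nearest core lay within 150 bases of the start codon, 6 rose and none fell, with a median change of 0.57. Of 26 with the core at 151 to 300 bases, 2 rose and 1 fell, with a median of 0.31. At 301 to 450 bases, 2 of 16 rose and 1 fell (median -0.16), at 451 to 600 bases 1 of 14 rose (median -0.09), and of 39 without the core 3 rose and 1 fell (median -0.05). The 6 nearest risers were IRC15 at 72 bases, COS1 at 91, PUT3 at 113, YNR066C and YCR101C at 114 and YDR374W-A at 133. The other 5 risers with a core had it farther away, APQ12 at 209 bases, HST2 at 250, UBI4 at 319, YPL014W at 407 and PST1, with the largest change, at 526. The 6 nearest risers are not 6 separate observations of position, since YNR066C and YCR101C have the same 30 bases around the core. In addition, 71.1% of the 50-base words of COS1 occur more than once in R64. Genes differ in other ways along this axis, and the bins of 16 and 14 genes are small.

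**Figure D3:**
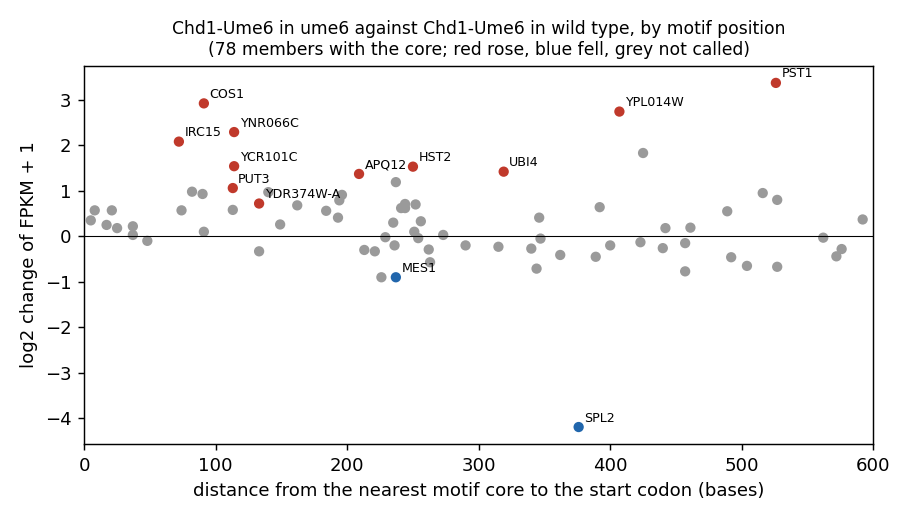
Log2 change of FPKM + 1 between ume6 with Chd1-Ume6 and wild type with Chd1-Ume6 (vertical axis) against the distance in bases from the nearest GCCGCC core to the start codon (horizontal axis) for the 78 members with a core. Of the 11 red points, which rose, 6 lie left of 150 bases, and PST1, the highest, lies at 526 bases.

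Many members share their upstream region with another gene. Of the 117 with an R64 locus, 69 had a divergent neighbour, a gene transcribed away from it across 1 intergenic region. That neighbour carried the motif entry for 58.0% of the 69, against 4.72% of all genes with a divergent neighbour. The neighbour was itself a member for 30, which form 15 pairs, and was a motif gene below the threshold for 8. An entry assigned to both genes beside 1 site gives such pairs, and how the authors assigned entries is not given in the sources used here.

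In the 8 pairs of a member and a quieter motif gene, 5 neighbours rose between the strains with the fusion (YDR374C, YJR005C-A, PIG1, CRC1 and CSR2), while among the members YDR374W-A rose and RAS1 fell. Paired or not, 48.9% of the tested motif genes below the threshold rose, and 11.8% of members. The pairs are few, and their counts were not tested against these shares. In the pairs the median change was 0.15 for the members and 1.33 for the neighbours, beside 0.1 and 1.07 for the 2 classes as a whole. RAS1 fell while CRC1, a mitochondrial carnitine carrier, rose by 1.38 across the same region. YDR374W-A had 117 and 124 FPKM in ume6 with the fusion, against 79.1 and 66.3 FPKM in wild type with the fusion. Its neighbour YDR374C had 42.6 and 54.6 FPKM in ume6 with the fusion, against 8.75 and 14.2 FPKM in wild type with the fusion, and rose by 2.02 on the log2 scale (± 0.24 SE, limma adjusted p = 0.00296). The member had the higher level and the smaller change.

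POL31, a DNA polymerase delta subunit, had a change of 0.26 ± 0.21 SE beside 1.96 ± 0.40 SE for YJR005C-A. MCM5, a subunit of the replicative helicase, had -0.20 ± 0.25 SE beside 1.28 ± 0.27 SE for PIG1. Neither member was called. The wild type threshold separates the genes of these pairs by level, and the part of level in the difference was not tested.

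Of the 15 pairs in which both genes are members, neither was called in 11, 1 was called in 3, and both were called only for YPL014W and HST2. Among all members, paired or not, 11.8% rose and 2.52% fell. PST1 rose by 3.37 while CDC34, a ubiquitin-conjugating enzyme across the same region, had 161 and 136 FPKM in ume6 with the fusion, against 99.5 and 95.4 FPKM in wild type with the fusion (0.60 ± 0.20 SE, limma adjusted p = 0.0962). YOR152C rose by 1.26 while PDR5 had a change of -0.44 ± 0.25 SE. SPL2 fell by 4.19, and ARO9 had -0.90 ± 0.25 SE (limma adjusted p = 0.0522).

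**Figure D4:**
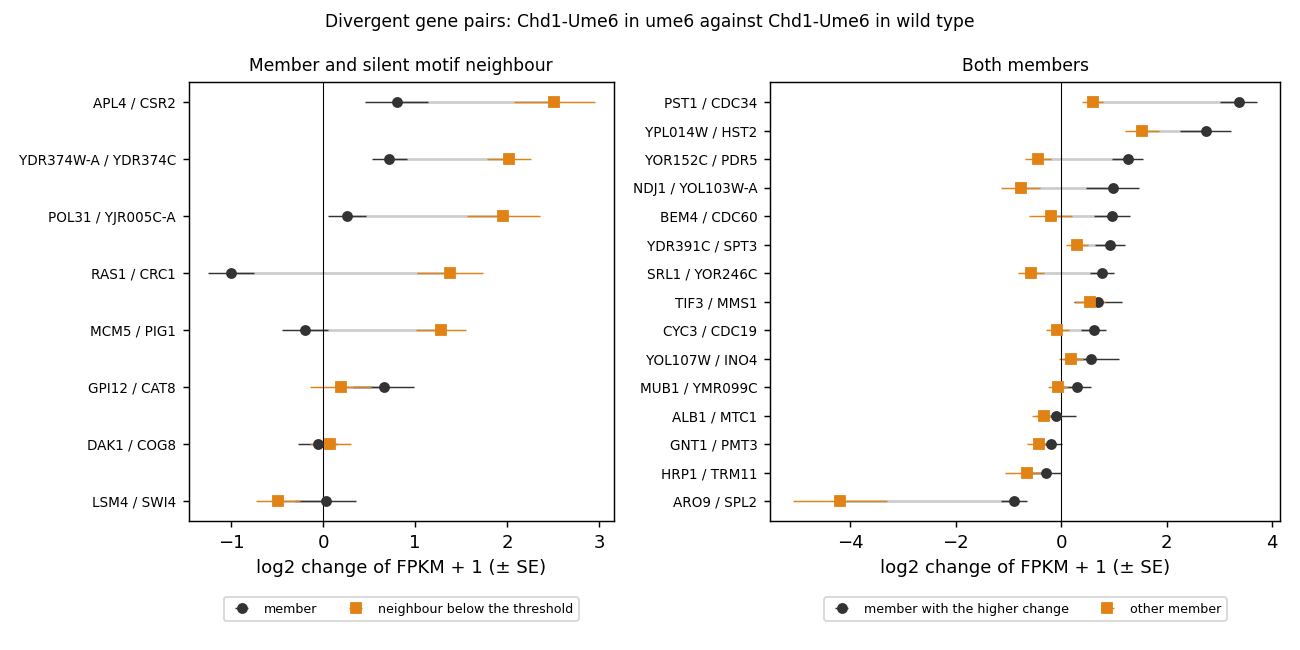
Log2 change of FPKM + 1 with its standard error (horizontal axis) for divergent gene pairs (rows), ume6 with Chd1-Ume6 against wild type with Chd1-Ume6. On the left, 8 members (circles) stand beside a motif neighbour below the wild type threshold (squares), and 6 of the 8 squares lie to the right of their circle. On the right, both genes of 15 pairs are members.

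The fusion itself moved no member past the threshold. For active Chd1-Ume6 in ume6 against ume6 alone, 0 of 119 members were called by limma (0.224% of all genes), and 13 had an unadjusted p under 0.05 (9.36% of all genes). COS9 had a change of -1.16 ± 0.20 SE (limma adjusted p = 0.0765) and YCR101C of -1.29 ± 0.27 SE (limma adjusted p = 0.0827). YCR101C had 42.8 and 35.4 FPKM in ume6 with the fusion, against 75.3 and 125 FPKM in ume6 alone, so its columns do not overlap. GSH1, of glutathione synthesis, had the largest positive value (0.92 ± 0.28 SE), before APL4 (0.77), APQ12 (0.75), SGT2 (0.66) and YDR222W (0.54). The most negative values were those of SPL2 (-2.30), YCR101C, NDJ1 (-1.19), COS9 and MDH2, the cytosolic malate dehydrogenase (-1.01).

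For the inactive fusion in ume6 against ume6 alone 0 members were called by limma (0.0481% of all genes), and 13 had an unadjusted p under 0.05 (7.35% of all genes). PST1 had 432 FPKM with the inactive fusion, against 1564 and 1555 FPKM in ume6 alone, a log2 difference of -1.79 ± 0.45 SE (limma adjusted p = 0.426). YNR066C had 53.6 FPKM with the inactive fusion, against 167 and 153 FPKM in ume6 alone (-1.73 ± 0.32 SE, limma adjusted p = 0.342). In both genes the single column lies below both others. YCR101C (24.3 FPKM with the inactive fusion, against 75.3 and 125 FPKM in ume6 alone), YOR338W (-1.35) and CYC3 (-1.29) were the other most negative members, and SPL2 (1.38), HRP1 (0.75), FPR4 (0.67), CLB2, a mitotic cyclin (0.64), and NSR1 (0.56) the most positive.

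For active against inactive fusion in ume6, 0 members were called by limma (0.353% of all genes), and 20 had an unadjusted p under 0.05 (14.2% of all genes). PST1 had 1656 and 2290 FPKM with the active form, against 432 FPKM with the inactive form (2.11 ± 0.45 SE, limma adjusted p = 0.0995). SPL2 had 6.82 and 5.36 FPKM with the active form, against 90.7 FPKM with the inactive form (-3.68 ± 1.15 SE, limma adjusted p = 0.216). The other largest positive values were those of YOR338W (1.60), CYC3 (1.22), APQ12 (1.21) and GSH1 (1.18), and the other most negative those of COS9 (-0.96), HRP1 (-0.92), UPC2 (-0.88) and FAS1 (-0.80). These p-values do not show that the forms act alike.

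In rrp6, 0 members were called by limma between strains with and without the fusion (0.705% of all genes), and 19 had an unadjusted p under 0.05 (14.6% of all genes). YCR101C had 36.0 and 45.4 FPKM in rrp6 with the fusion, against 15.0 and 15.0 FPKM in rrp6 alone (1.38 ± 0.27 SE, limma adjusted p = 0.0663). YOL107W had 23.0 and 89.0 FPKM in rrp6 with the fusion, against 19.1 and 12.3 FPKM in rrp6 alone (limma adjusted p = 0.237). SPL2 (1.76), RIP1, a respiratory complex subunit (1.36), and PST1 (1.21) had the other largest positive values. YDR222W (-1.10), CLB2 (-0.91), CDC60 (-0.87), TIF3 (-0.86) and MES1 (-0.82) had the most negative ones. Without the first rrp6 column 4 members were called, and without the first column of rrp6 with the fusion 2.

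Loss of Rrp6 among strains with the fusion gave 8 rises among members (6.72%), where 5.51% of all genes were called higher. The share that rose was thus close to the background. No member fell, where 0.24% of all genes were called lower. YJR129C, named EFM3 in RefSeq and a methyltransferase of translation elongation factor 2, had 1019 and 1363 FPKM in rrp6 with the fusion, against 28.1 and 21.0 FPKM in wild type with the fusion. It rose 48.1-fold (5.59 ± 0.28 SE, limma adjusted p = 0.000183, n = 2 each). It had 1686 and 1141 FPKM in rrp6 without the fusion, and between 17.0 and 28.1 FPKM in the 11 columns that keep Rrp6. The small nucleolar RNA gene SNR3 lies 57 bases from YJR129C on the opposite strand in R64, and the part of its RNA in these values was not tested.

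YNR066C had 103 and 111 FPKM in rrp6 with the fusion, against 22.3 and 13.7 FPKM in wild type with the fusion (2.71 ± 0.26 SE, limma adjusted p = 0.00249). UPC2, the sterol-responsive activator, had 37.3 and 37.6 FPKM in rrp6 with the fusion, against 17.8 and 10.6 FPKM in wild type with the fusion (1.56 ± 0.26 SE, limma adjusted p = 0.0168). Both genes have groups that do not overlap. YCR101C (1.54), COS1 (1.39), SRL1, a cell wall mannoprotein (1.29), and LOT5 (0.96) rose too, as did ACA1, with 55.4 and 64.6 FPKM in rrp6 with the fusion, against 24.9 and 19.7 FPKM in wild type with the fusion.

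LOT5 had 68.8 and 66.9 FPKM in rrp6 with the fusion, and 75.6 and 71.1 FPKM in rrp6 alone, against 38.2 and 34.2 FPKM in wild type with the fusion. No GCCGCC core was found in the 600 bases before YJR129C, ACA1, SRL1 and LOT5, while YNR066C, UPC2, YCR101C and COS1 had it. The comparison uses the same wild type columns with the fusion as the first one. Its rrp6 columns are all in the workbook, so the change takes in the fit's term for the table. That term is estimated partly from the ume6 columns. YJR129C was called whichever column was left out. Without the workbook column of wild type with the fusion it was the only one, without the second column of rrp6 with the fusion 2 were called, without its first column 6, and without any single ume6 column, of either kind, or the first-table column of wild type with the fusion 5. With quantile normalization 3 members were called, and with the isolate number as a replicate block 2.

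**Figure D5:**
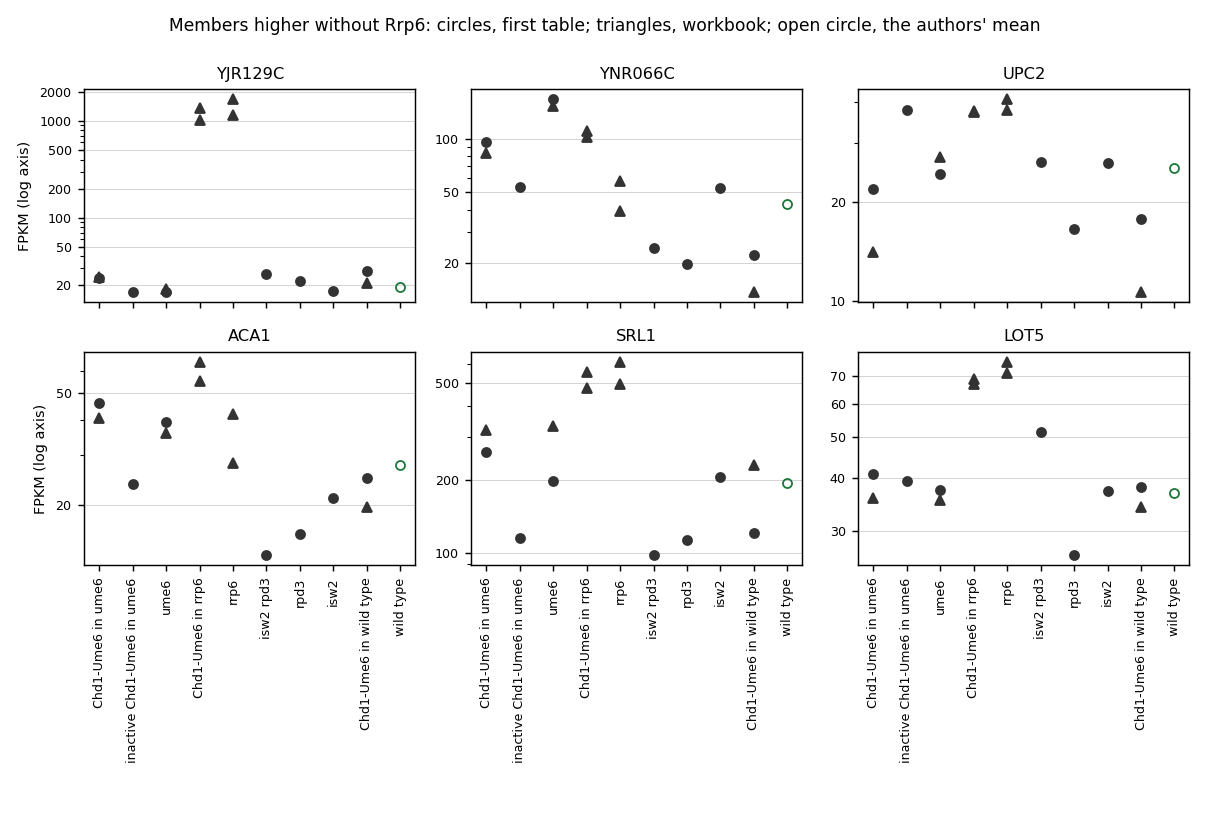
FPKM on a log axis for 6 of the 8 members that rose in rrp6 with Chd1-Ume6 against wild type with Chd1-Ume6 (panels) in each group of strains (horizontal axis), with symbols for the first table (circles), the workbook (triangles) and the authors' wild type mean (open circle). YJR129C is above 1000 FPKM in the 4 columns without Rrp6 and below 30 FPKM elsewhere.

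The enzymes that Ume6 recruits could be compared in single columns of the first table, without a test. In the double deletion against isw2, 5 members were at least 2-fold higher (5.66% of all genes) and 9 lower (6.04%), near the background. FHN1, a membrane-domain protein, was 3.07 times as high, and YPL014W had 5.63 FPKM in the double deletion, against 20.0 FPKM in isw2. Against rpd3, 1 member was at least 2-fold higher (2.37% of all genes) and 4 lower (2.53%). The higher one was COS1, with 8.99 FPKM in the double deletion, against 0.44 FPKM in rpd3. For comparison, 38 of 90 motif genes below the threshold were at least 2-fold higher in the double deletion than in isw2.

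The contrasts with the wild type column share the value that chose the members and support nothing further. In ume6, 20 members were at least 2-fold higher (9.65% of all genes) and 4 lower (4.53%). The highest ratios of FPKM + 1 were those of IGD1, which regulates glycogen breakdown (5.82), COS1 (5.04), YPL014W (4.21), YCR101C (4.07), UBI4 (3.97), PST1 (3.96), YNR066C (3.83), IRC15 (3.52), YDR374W-A (2.68) and PUT3 (2.65). The lowest log2 differences were those of YOL103W-A (-2.36), SPL2 (-1.93), ARO9 (-1.34), YCL021W-A (-1.22) and NSR1 (-0.96). Of the 50-base words of YOL103W-A, 93.5% occur more than once in R64. IGD1 had 101 FPKM in the first-table ume6 column, against 16.5 FPKM in wild type, and was not called for ume6 against isw2 (3.02 ± 0.74 SE, limma adjusted p = 0.0716).

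In isw2, 0 members were at least 2-fold above wild type (0.737% of all genes) and 1 below (0.449%). In rpd3, 2 were above (3.81%) and 8 below (5.37%), and in the double deletion 5 were above (6.95%) and 11 below (8.27%). In wild type with the fusion, 1 was above (2.36%) and 6 below (3.46%). COS1 was at 0.44 FPKM in rpd3, 8.99 FPKM in the double deletion and 27.8 FPKM in isw2, against 24.6 FPKM in wild type. UBI4 was at 367 FPKM in the double deletion, 209 FPKM in rpd3 and 197 FPKM in isw2, against 151.3 FPKM in wild type.

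UME6, genes known to act with it and CHD1 of the fusion were followed in a list of 21, of which 20 could be tested. None is a member. Between the strains with the fusion 3 of them rose: SDS3 (0.89) and ASH1 (0.93), of the Rpd3 complex, and CHD1 (0.99), which the fusion adds to. The median of the list was -0.06. In a list of 40 meiotic genes, of which 37 could be tested, 24 rose and none fell, with a median of 1.25. Over all genes tested, 9.36% were called higher and 2.69% lower. Both lists were chosen with earlier results of these data known, and other lists were counted that are not given here. NDJ1, a meiotic telomere protein, was the only member in the meiotic list. It had 32.1 and 29.9 FPKM in ume6 with the fusion, against 18.5 and 12.4 FPKM in wild type with the fusion (0.98 ± 0.50 SE, limma adjusted p = 0.234).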

How the data were processed

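Total RNA of W303 yeast was depleted of ribosomal RNA and made into strand-specific dUTP libraries, per the labels' protocols. Cufflinks 2.2.1, Cuffdiff, TopHat2, SAMtools and CASAVA were used per the submitters' processing notes, which give no roles. Neither the genome build nor strand use in counting is given in the sources used here. The authors deposited 8 columns of log2 abundance in a first table and 7 sheets of FPKM in a workbook, headed as log2. The sheet of the ume6 deletion was read as log10, because the authors' deposited values sum to 938206 FPKM on that scale and to 20679 on the log2 scale. The deposited wild type column is a mean. In thousandths of FPKM, 15.8% of 1003 values between 100 and 1000 FPKM were whole as deposited, within 0.02. The share was 30.8% after multiplying by 2 and 93.3% after multiplying by 6. No depth is given, so no counting interval is possible.

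All columns were put on 1 scale, log2(FPKM + 1), which understates changes of low genes. The fit took the 6241 genes with a value in all 15 columns and at least 1 FPKM in at least 2. A single limma model (3.58.1, R 4.3.3) had 10 group means, a table term, a variance trend and 4 residual degrees of freedom. The table term enters every change between groups that are not spread alike over the first table and the workbook. A group with 1 column is assumed to vary like the others. The plan had assumed 17 libraries. The fit was tested on simulated data. Members and gene lists were chosen with earlier results of these data known. The text names, per comparison, the called members (up to 10 per direction with the largest change, and beyond these by their value), otherwise up to 5 with the largest change given as values, the 10 highest and 5 lowest ume6 differences from wild type, the 5 members on each side of the threshold and the 5 highest in wild type. CDC34, POL31, MCM5, LOT5 and others named beside a neighbour or in a role were chosen after their values were seen. R64 sequences and loci are from RefSeq, matched by systematic name. Alternatives were pseudocount 5, no filter, quantile normalization, a replicate block, leaving out columns and a threshold of log2 5.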

Additional observations from a re-analysis of the deposited data

Results flagged for a closer look

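The effect of Chd1-Ume6 on YCR101C differed between backgrounds by the test of the difference itself, which was added after the data were seen. YCR101C had 42.8 and 35.4 FPKM in ume6 with the fusion, against 75.3 and 125 FPKM in ume6 alone, a log2 change of -1.29 ± 0.27 SE. It had 36.0 and 45.4 FPKM in rrp6 with the fusion, against 15.0 and 15.0 FPKM in rrp6 alone, a log2 change of 1.38 ± 0.27 SE. The effect in ume6 minus the effect in rrp6 was -2.67 ± 0.38 SE (limma adjusted p = 0.0412). It was called for 1 of 119 members (0.84%), and for 13 of 6241 genes (0.208%). YNR066C, with the identical 30-base site, had a difference of -1.98 ± 0.35 SE and missed the threshold (limma adjusted p = 0.0761). The ume6 columns lack native Ume6 and keep Rrp6, and the rrp6 columns the reverse. With the fusion they also differ in CHD1 RNA, and all rrp6 columns come from the workbook. The parts of these in the difference cannot be told apart here.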

How the results depend on the processing

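Numbers are of members called, or at least 2-fold apart. A wild type threshold of log2 5, which leaves 75 members, gave 10 instead of 17 for Chd1-Ume6 in ume6 against Chd1-Ume6 in wild type, 7 for ume6 against isw2, 3 for Chd1-Ume6 in rrp6 against wild type with the fusion and 7 for ume6 against isw2 rpd3, because fewer genes were counted. It left 3 higher in isw2 rpd3 against isw2, 0 in isw2 rpd3 against rpd3, 8 in ume6 against wild type, 0 higher and 5 lower in rpd3, 1 higher and 6 lower in isw2 rpd3 and 0 higher in wild type with the fusion. Quantile normalization gave 3 for ume6 against isw2, 3 for Chd1-Ume6 in rrp6 against wild type with the fusion and 8 for ume6 against isw2 rpd3, and the cause was not tested. A pseudocount of 5 left 4 lower in rpd3, and 3 higher and 7 lower in isw2 rpd3, all against wild type, and the cause was not tested.

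Leaving out 1 column gave 4 to 23 for Chd1-Ume6 in ume6 against Chd1-Ume6 in wild type cells, 1 to 14 for ume6 against isw2, 0 to 1 for Chd1-Ume6 in ume6 against ume6, and also for active against inactive fusion, 0 for inactive fusion against ume6, 0 to 4 for Chd1-Ume6 in rrp6 against rrp6, 1 to 9 for Chd1-Ume6 in rrp6 against wild type with the fusion and 3 to 18 for ume6 against isw2 rpd3. The labels give the paired groups the same isolate numbers. Headers of the ume6 columns, with and without the active fusion, and of wild type with the fusion carry none, so the workbook column was taken as isolate 2 from its sheet's name and the first-table column as isolate 1, an assumption on which the block rests. However, the deviations of rrp6 columns correlated with the others at -0.346 to -0.0223 while the other groups gave 0.422 to 0.691, so the numbers do not pair all samples. With the replicate block 13 members were called for the loss of Ume6 among strains with the fusion, 9 for ume6 against isw2, 13 for ume6 against isw2 rpd3, 2 for the loss of Rrp6 among strains with the fusion and 0 in the other 4 tests. With the rrp6 numbers crossed, a pairing added after the data were seen, the counts were 4 for Chd1-Ume6 in rrp6 against rrp6, 17 for Chd1-Ume6 in rrp6 against wild type with the fusion and 21 for ume6 against isw2 rpd3.

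Of 1470 values of named genes under the alternatives, 1262 kept direction and call, 177 lost the call, 27 gained it and 4 changed sign, none of the last called. Leaving out columns gave YDR222W -0.06 to 1.14 for Chd1-Ume6 in ume6 against ume6, and for the loss of Rrp6 gave YPL014W -1.43 to 0.13 and DHR2 -1.29 to 0.11, where SPL2 with crossed numbers was at 0.10. The filter cost no call. With 15 columns, 4 residual degrees of freedom and unknown depth, small changes of abundant members may pass unseen.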
